A study of Mus musculus with 8 samples.

Results

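The genes described here encode the machinery that licenses replication origins and copies DNA. There were 54 of them, listed by name from their known functions, and all probe sets annotated to 1 of these genes alone were used. Of the 54 genes, 53 had such a probe set, 114 probe sets in all, among 18193 named genes of the array. Chaf1a, a subunit of the histone chaperone CAF-1, had none of its own and was not analysed here. Each gene was summarised by its brightest probe set over the 8 arrays, and all 53 passed the filter on dim probe sets. The other probe sets of the 39 genes that had several are given where a call on activation was lost on the second one, and in some other cases.

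Origins of replication are marked by the origin recognition complex (ORC), onto which Cdc6 and Cdt1 load the MCM2-7 helicase in the G1 phase of the cell cycle. The kinases CDK and Dbf4-dependent Cdc7, with Mcm10, Cdc45 and the GINS complex, turn the loaded helicase into an active fork in S phase, where the polymerases alpha, delta and epsilon copy the strands. Resting T cells lie outside the cycle, and a T cell receptor signal with co-stimulation brings them into it. Many of these genes are known E2F targets.

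CD8+ T cells had been purified from mouse spleen and profiled on Affymetrix oligonucleotide arrays, with 2 arrays in each of 4 groups. Activated knockout cells were from Elf4-/- mice, which lack the ETS family transcription factor ELF4, after 3.5 days of culture in which the plates carried anti-CD3 and the medium, RPMI with 10% FBS and 5% T-stim, held anti-CD28. Activated wild-type cells were from C57BL/6 mice after the same culture. Naive knockout and naive wild-type cells were from the same genotypes and were left untreated, with no culture control. The labels give neither age nor sex, nor the strain background of the knockout. Nor do they say that the 2 arrays of a group came from different mice or cultures, and the p-values here reflect the spread between arrays alone, which may be technical.

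Intensities are MAS5 values on a linear scale, and array medians lay between 64.1 and 86.2. Replicate arrays correlated at 0.94 to 0.965, arrays of the other genotype in the same state at 0.936 to 0.959, and arrays of the other state at 0.799 to 0.831. The brightest Elf4 probe set had 76.2 and 80.6 on the activated knockout arrays, 83.6 and 134 on the activated wild-type arrays, 165 and 192 on the naive knockout arrays and 115 and 199 on the naive wild-type arrays. It did not separate the genotypes in naive cells. The second Elf4 probe set had 1.9 and 26.1 on activated knockout arrays and 112 and 58.5 on activated wild-type arrays. On naive arrays it had 77.6 and 58.2 in knockout and 32.4 and 9.37 in wild type, so it was higher in naive knockout cells. The sources used here do not say whether the probes of either lie in the deleted part. The array labels put naive and activated samples in separate numbered series, and the descriptions of both naive wild-type arrays carry the same array label. Xist, the X-inactivation RNA, had 7703 to 10010 on activated arrays and 60.3 to 172 on naive arrays, while Y-linked Eif2s3y had 2.93 to 44.0 on activated arrays and 2537 to 5146 on naive arrays. The Actb 3′/5′ signal ratio, which grows as RNA degrades, was 7.44 and 11.1 on activated knockout, 5.98 and 5.90 on activated wild-type, 1.99 and 1.96 on naive knockout, and 2.13 and 2.50 on naive wild-type arrays. Activation, the sex of the animals, the array series and the Actb ratio therefore cannot be told apart in any comparison of activated with naive cells. The summed intensity of 9 T cell markers, Cd8a and Cd8b1 among them, was 28340 and 30660 on activated knockout, 37360 and 35210 on activated wild-type, 98910 and 91670 on naive knockout, and 119500 and 110700 on naive wild-type arrays, and on activation 8 of the 9 fell in knockout and 9 in wild-type cells.

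The promoters of Cdc6, Orc1 and Clspn are shown because these were the 3 genes of largest rise on activation in wild-type cells among those with 1 listed promoter that holds an E2F word, and that of Cdt1 because its change was the smallest among them. Each runs from 250 bases before to 50 bases after the start of transcription, 5′ to 3′ on the strand of the gene, from RefSeq on GRCm38.p6. Capitals mark the E2F word, which was searched as TTTCCCGC, TTTGGCGC, TTTCGCGC or TTTGCCGC on both strands, with overlapping matches counted. The Cdc6 promoter lies at chr11:98907901-98908200 on the + strand and its word begins at base -138, where +1 is the start. The Orc1 promoter lies at chr4:108579204-108579503 on the + strand and its word begins at -27. The Clspn promoter lies at chr4:126556730-126557029 on the + strand with the word at 22, and that of Cdt1 at chr8:122567765-122568064 on the + strand with the word at 33.
Cdc6: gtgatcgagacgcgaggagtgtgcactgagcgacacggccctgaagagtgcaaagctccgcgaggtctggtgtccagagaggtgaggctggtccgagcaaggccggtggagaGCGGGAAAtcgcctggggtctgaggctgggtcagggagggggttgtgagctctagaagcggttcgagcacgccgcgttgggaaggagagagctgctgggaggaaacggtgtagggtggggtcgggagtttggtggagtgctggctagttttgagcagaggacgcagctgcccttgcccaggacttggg
Orc1: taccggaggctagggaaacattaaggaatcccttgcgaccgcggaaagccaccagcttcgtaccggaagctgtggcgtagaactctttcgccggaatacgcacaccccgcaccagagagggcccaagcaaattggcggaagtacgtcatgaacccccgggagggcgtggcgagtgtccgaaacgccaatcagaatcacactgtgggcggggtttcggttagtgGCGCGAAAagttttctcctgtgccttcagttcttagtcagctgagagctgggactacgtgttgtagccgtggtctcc
Clspn: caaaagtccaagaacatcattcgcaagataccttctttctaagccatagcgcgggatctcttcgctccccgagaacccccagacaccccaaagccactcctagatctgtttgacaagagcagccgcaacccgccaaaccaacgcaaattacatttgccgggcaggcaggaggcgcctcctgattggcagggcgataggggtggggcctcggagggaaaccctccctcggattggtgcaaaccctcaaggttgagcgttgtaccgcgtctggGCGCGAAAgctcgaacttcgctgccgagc
Cdt1: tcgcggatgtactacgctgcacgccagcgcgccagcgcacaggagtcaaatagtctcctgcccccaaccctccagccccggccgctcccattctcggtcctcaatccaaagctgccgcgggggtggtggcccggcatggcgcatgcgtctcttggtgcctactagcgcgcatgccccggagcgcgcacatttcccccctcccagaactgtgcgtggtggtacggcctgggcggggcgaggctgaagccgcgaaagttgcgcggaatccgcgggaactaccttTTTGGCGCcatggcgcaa

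RefSeq promoters were matched for 45 of the 54 genes. An E2F word stood in the promoters of 16 of the 45 (35.6%), namely Orc1, Orc3, Cdc6, Cdt1, Mcm3, Mcm5, Mcm6, Mcm7, Gins3, Pola1, Pold1, Pold3, Pole2, Rfc3, Lig1 and Clspn. The share over all 27025 genes with a promoter was 2.6%, and over the 10340 of them that were tested on the arrays it was 4.55%. The word CCAAT was in 57.8% of the 45, against 42.6% of the tested genes. The ETS word CCGGAAGT was in 9 of the 45 (20%), against 8.59% of the tested genes; these were Orc3, Mcm10, Gins3, Pold3, Rfc3, Rfc4, Rpa2, Rpa3 and Tyms. A match is a string of letters in this window and was not tested as a binding site.

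Most replication genes were higher in activated than in naive cells of either genotype. A change was called at an adjusted p under 0.05 in limma's moderated test, with Benjamini-Hochberg adjustment over all 27348 probe sets tested. In knockout cells 41 of 53 genes rose (77.4%) and 0 fell, against 21.9% of all 12783 genes tested that rose and 26.1% that fell. In wild-type cells 46 of 53 rose (86.8%) and 0 fell, against 21.3% and 24.1% of all genes. At an unadjusted p under 0.05 the counts were 42 higher and 0 lower in knockout cells, and 48 higher and 1 lower in wild-type cells. The median log2 change was 1.56 in knockout and 1.66 in wild-type cells, beside -0.12 over all genes in each genotype. A log2 change of at least 1 was reached by 34 of the called genes in knockout and 38 in wild-type cells. With the Actb ratio, which nearly follows the state, as a covariate, 0 of the 53 rose in knockout and 9 in wild-type cells, while the medians were 1.49 and 1.66. Markers of other cells moved too: granulocyte markers fell for 8 of 8 genes in knockout cells (median -4.51) and 0 of 8 in wild-type cells (median -0.41), and B cell markers fell for 5 of 7 in each genotype (medians -3.09 and -2.39). Of the macrophage and monocyte markers tested, 3 of 4 fell in knockout and 2 of 4 in wild-type cells, and of the NK cell markers 2 of 2 and 1 of 2. The part of these markers in the counts was not tested. In these bulk samples a larger share of cycling cells and more RNA per cell cannot be told apart.

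The heat map of the 53 genes shows a step between activated and naive arrays in most rows. Orc5, Rfc2, Rpa1, Fen1, Rnaseh2a, Tyms and Chaf1b were not called in either genotype.

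**Figure D1:**
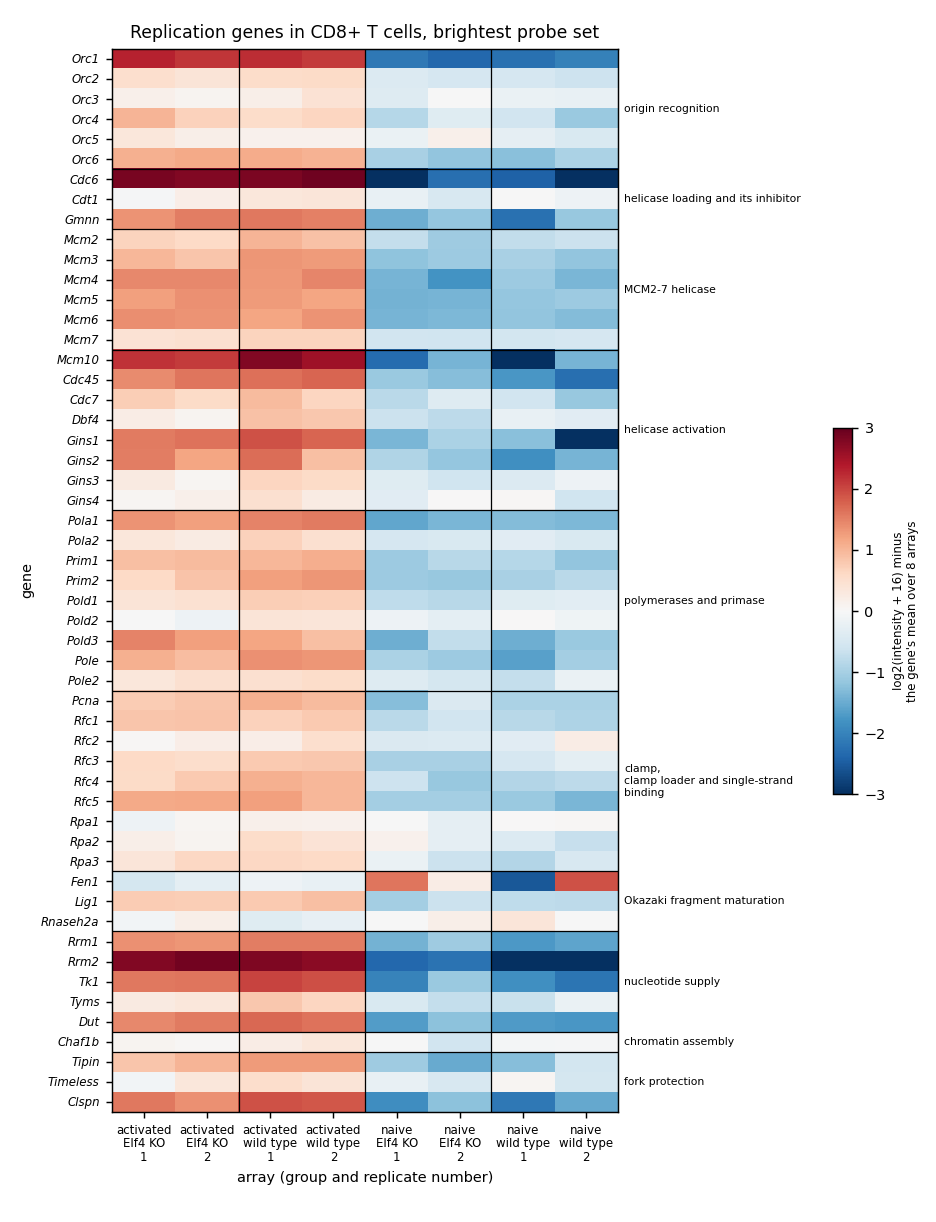
Each row is 1 replication gene, drawn from its brightest probe set and grouped by class, and each column is 1 array. Colour gives log2(intensity + 16) minus the gene's mean over the 8 arrays, with values beyond 3 in either direction drawn at the end of the scale. Rrm2, Cdc6, Orc1 and Mcm10 have the largest steps between activated and naive arrays.

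Of the 6 ORC subunits, which bind origins and recruit the loading factors, 4 rose in knockout and 5 in wild-type cells. Orc1, the largest subunit and the one whose level is tied to the cycle in mammals, had 1856 and 1661 on activated knockout, 1762 and 1606 on activated wild-type, 69.8 and 58.4 on naive knockout, and 65.2 and 76.8 on naive wild-type arrays. All activated arrays lay far above all naive ones, and the genotypes overlapped within each state. The log2 rise was 4.47 ± 0.23 (SE; limma adjusted p = 1.81e-07) in knockout cells and 4.29 ± 0.23 (adjusted p = 2.48e-07) in wild-type cells, 22.2-fold and 19.6-fold. Its second, dim probe set rose by 3.38 in knockout cells and had 0.96 in wild-type cells (adjusted p = 0.058). Orc6, the smallest subunit, rose by 2.17 and 2.19, Orc4 by 1.47 and 1.44, and Orc2 by 0.90 and 1.11. Of several probe sets each, the dimmest of Orc2, Mcm3, Mcm5 and Prim2 was not called in wild-type cells, at 0.70, 0.80, 0.91 and -0.13, while the second brightest of each rose there. Orc3 had 0.30 in knockout cells (adjusted p = 0.21) and rose by 0.52 in wild-type cells (adjusted p = 0.043), and the difference between the genotypes was not called (adjusted p = 0.85). The wild-type call was lost without either naive wild-type array or any 1 activated array. Orc5 had the smallest change, 0.28 in knockout and 0.49 in wild-type cells, and was not called in either genotype. Orc3 and Orc4 each had a second probe set with the opposite sign, at -0.80 and -0.56 for Orc3 and -0.61 and -0.49 for Orc4 in knockout and wild-type cells, none of them called.

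All 3 genes of helicase loading rose in both genotypes, but by very different amounts. Cdc6, the ATPase that works with ORC to load the helicase, had 5182 and 4928 on activated knockout, 5019 and 5364 on activated wild-type, 49.3 and 134 on naive knockout, and 117 and 60.5 on naive wild-type arrays. Its naive values lay above the array median on 1 array and below it on the other in each genotype, and its log2 rise was 5.68 ± 0.36 in knockout and 5.69 ± 0.36 in wild-type cells, 51.2-fold and 51.6-fold. Gmnn, which encodes geminin, the inhibitor of Cdt1, had 12726 and 14631 on activated knockout and 14988 and 14253 on activated wild-type arrays, against 1805 and 2251 on naive knockout and 1056 and 2285 on naive wild-type arrays. It rose by 2.75 and 3.22. Cdt1, the loader itself, was already bright in naive cells. It had 8977 and 10557 on activated knockout, 11567 and 11730 on activated wild-type, 7888 and 6626 on naive knockout, and 9123 and 8293 on naive wild-type arrays. Its rise of 0.43 in knockout cells (adjusted p = 0.023) and 0.42 in wild-type cells (adjusted p = 0.027) was the smallest of the called ones. Its second probe set fell by 0.55 in knockout cells (adjusted p = 0.016) and changed by -0.03 in wild-type cells (adjusted p = 0.90), so the direction for Cdt1 depended on the probe set. Both Cdt1 calls on the brighter probe set were also lost when single arrays were left out, among them the second naive and second activated array of the same genotype.

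All 6 genes of the MCM2-7 helicase, the ring that unwinds the template, rose in both genotypes, with a median of 2.38 in knockout and 2.37 in wild-type cells. Mcm5 had 21216 and 23357 on activated knockout, 21712 and 20593 on activated wild-type, 3357 and 3406 on naive knockout, and 4012 and 4205 on naive wild-type arrays. The 2 states were far apart, with a rise of 2.71 ± 0.11 in knockout and 2.36 ± 0.11 in wild-type cells. Mcm4 rose by 3.05 and 2.63, Mcm6 by 2.74 and 2.51, Mcm3 by 2.05 and 2.38, and Mcm2 by 1.52 and 1.66. Mcm7 had the smallest rise, 1.04 and 1.18, on its brightest probe set, and 1.94 and 1.92 on the next one. The brightest probe sets of Mcm4, Mcm5 and Mcm6 carry an identifier for possible cross-hybridisation (_x_at); the next ones, without it, rose by 1.64 and 1.95 for Mcm4, 0.73 and 0.84 for Mcm5, and 1.68 and 2.27 for Mcm6. Direction was thus the same on the brightest and the next probe set of each of these genes, while size was not.

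Helicase activation involves 8 genes, of which 7 rose in knockout and all 8 in wild-type cells, with medians of 1.82 and 2.28. Cdc45, part of the active CMG helicase, had 1113 and 1263 on activated knockout, 1303 and 1396 on activated wild-type, 179 and 159 on naive knockout, and 110 and 72.2 on naive wild-type arrays. Its log2 rise was 2.70 ± 0.24 and 3.70 ± 0.24, but its second, dim probe set had 0.44 and 0.30, neither called. The naive knockout arrays lay above the naive wild-type ones, while the activated knockout arrays lay below the activated wild-type ones, on the brightest probe set. The GINS complex, a ring partner of Cdc45, rose unevenly. Gins2 rose by 2.39 and 2.91, and Gins1 by 2.75 and 4.10, and the wild-type value rests on naive arrays of 162 and 28.0. The second Gins1 probe set rose by 1.56 in knockout cells and had 0.71 in wild-type cells (adjusted p = 0.25). Gins3 rose by 0.64 (adjusted p = 0.049) and 0.90 (adjusted p = 0.011), and the knockout call was lost on leaving out any 1 array other than the naive wild-type ones, the wild-type call without either activated wild-type array. Gins4 had 0.26 in knockout cells (adjusted p = 0.39) and rose by 0.64 in wild-type cells (adjusted p = 0.044), a call that was lost without any 1 activated array or the second naive wild-type array; the difference was not called (adjusted p = 0.76). Mcm10, which helps start unwinding, rose by 3.99 ± 0.73 and 5.61 ± 0.73; its naive arrays had 83.8 and 172 in knockout and 5.91 and 172 in wild-type cells, so the size of the wild-type change rests on 1 array. Its second, dim probe set had -0.43 and 0.35, neither called. Cdc7 rose by 1.25 and 1.65 on its brightest probe set, while the second, dim one had 0.10 and 0.30, neither called. Dbf4, the activating subunit of the Cdc7 kinase, rose by 0.86 and 1.12.

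Of the 9 polymerase and primase genes, 8 rose in knockout and 9 in wild-type cells, with medians of 1.86 and 2.07. Pola1, the catalytic subunit of the priming polymerase alpha, had 1666 and 1537 on activated knockout, 1825 and 1923 on activated wild-type, 209 and 238 on naive knockout, and 251 and 243 on naive wild-type arrays. It rose by 2.76 ± 0.19 and 2.85 ± 0.19. The primase subunits rose by 1.89 and 2.07 for Prim1 and by 1.86 and 2.16 for Prim2, and the accessory subunit Pola2 by 0.78 and 0.98. Pole, the catalytic subunit of the leading-strand polymerase epsilon, rose by 2.01 and 2.66, and its partner Pole2 by 0.86 and 0.97. In polymerase delta, which copies the lagging strand, Pold3 rose by 2.46 and 2.33 and the catalytic subunit Pold1 by 1.22 and 1.07. Pold2, the linking subunit, had the smallest change, 0.14 in knockout cells (adjusted p = 0.47) and 0.43 in wild-type cells (adjusted p = 0.041), and the wild-type call was lost without any 1 activated array or the second naive wild-type array. The difference between the genotypes was not called for Pold2 (adjusted p = 0.73).

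Among the 9 genes of the sliding clamp, its loader and the single-strand binding protein, 6 rose in knockout and 7 in wild-type cells. Pcna, the clamp that tethers the polymerases, had 22964 and 24091 on activated knockout, 28732 and 26446 on activated wild-type, 5562 and 10150 on naive knockout, and 7026 and 7021 on naive wild-type arrays. It rose by 1.64 ± 0.21 and 1.97 ± 0.21. Among the loader genes Rfc5 rose by 2.16 and 2.35, Rfc1 by 1.53 and 1.62, Rfc4 by 1.56 and 1.87, and Rfc3 by 1.52 and 1.18. The second Rfc4 probe set, which was also the brightest left after removing _x_at and _s_at ones, had 0.39 and 0.54, neither called. Rfc2 missed the threshold on its brightest probe set, with 0.54 (adjusted p = 0.051) and 0.40 (adjusted p = 0.14), while its other probe sets rose by 1.47 and 1.41 and by 2.32 and 1.85. The RPA trimer, which coats single-stranded DNA, behaved differently from subunit to subunit. Rpa1, its largest subunit, had 20482 and 23890 on activated knockout, 25532 and 25100 on activated wild-type, 22716 and 19054 on naive knockout, and 23117 and 23489 on naive wild-type arrays, so the states overlapped in knockout cells. Its change was 0.09 ± 0.12 and 0.12 ± 0.12, not called in either genotype. Rpa2 rose by 1.03 in wild-type cells (adjusted p = 0.00083), with 0.20 in knockout cells (adjusted p = 0.40), and the difference between the genotypes was not called (adjusted p = 0.29). The second Rpa2 probe set had -0.22 and 0.23, neither called. Rpa3 rose by 0.92 and 1.30, and the knockout call was lost without the second activated knockout array.

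Lig1, the ligase that joins Okazaki fragments, rose by 1.59 ± 0.17 and 1.61 ± 0.17. Fen1, the flap nuclease that trims them, was read differently by its 2 probe sets. The brightest one, whose identifier marks possible cross-hybridisation (_x_at), had 12727 and 14815 on activated knockout, 16359 and 15536 on activated wild-type, 55360 and 21433 on naive knockout, and 3138 and 68602 on naive wild-type arrays. The naive replicates were far apart in both genotypes, and no change was called. The other probe set had 1280 and 1109 on activated knockout, 1911 and 1772 on activated wild-type, 604 and 598 on naive knockout, and 837 and 544 on naive wild-type arrays. It rose by 0.97 (adjusted p = 0.0040) and 1.43 (adjusted p = 0.00035), and its naive replicates lay closer together than those of the brightest probe set. Rnaseh2a, the catalytic subunit of the nuclease that removes RNA primers and single ribonucleotides, had changes of -0.03 in knockout and -0.48 in wild-type cells, neither called.

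Genes of deoxynucleotide supply had the largest class medians, 2.95 in knockout and 3.40 in wild-type cells, and 4 of 5 rose in each genotype. Rrm2, the small subunit of ribonucleotide reductase whose level follows S phase, had 25668 and 27869 on activated knockout, 26223 and 24486 on activated wild-type, 723 and 795 on naive knockout, and 382 and 356 on naive wild-type arrays. All activated arrays lay far above all naive ones, and the rise was 5.11 ± 0.13 and 6.04 ± 0.13, the largest in wild-type cells. Rrm1, the large subunit, rose by 2.59 and 3.19, and Dut, the dUTPase that keeps uracil out of DNA, by 2.95 and 3.40. The second, dim probe set of Dut had -0.65 and 0.53, neither called. Tk1, the thymidine kinase of the salvage route, rose by 3.15 and 3.99. Tyms, thymidylate synthase, was dim on all of its probe sets: the brightest had 89.4 and 93.9 on activated knockout, 136 and 120 on activated wild-type, 47.7 and 37.1 on naive knockout, and 38.5 and 60.3 on naive wild-type arrays. Its changes of 0.89 (adjusted p = 0.13) and 1.16 (adjusted p = 0.061) were not called, although all activated arrays lay above all naive ones.

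Clspn, which encodes claspin, a link between the fork and the checkpoint kinase Chk1, had 1608 and 1383 on activated knockout, 2012 and 1937 on activated wild-type, 133 and 214 on naive knockout, and 107 and 171 on naive wild-type arrays. It rose by 3.02 ± 0.27 and 3.71 ± 0.27. Of the pair Timeless and Tipin, which stabilise the fork, Tipin rose by 2.21 and 2.20. Timeless had 0.48 in knockout cells (adjusted p = 0.11) and rose by 0.70 in wild-type cells (adjusted p = 0.029), and that call was lost without the second naive wild-type or either activated wild-type array. The difference between the genotypes was not called (adjusted p = 0.88). Chaf1b, the p60 subunit of CAF-1, had 0.35 and 0.32, not called in either genotype.

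The changes in the 2 genotypes, which share no arrays, followed each other closely from gene to gene. Across the 53 genes Pearson's r was 0.955 and Spearman's rho 0.972, a description across genes, which are not independent replicates. The change was larger in knockout cells for 13 genes and larger in wild-type cells for 40. The scatter of the 2 changes shows most points just under the line of equality, with Cdc6, Orc1 and the brightest probe sets of Mcm4, Mcm5 and Mcm6 among those on or above it.

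**Figure D2:**
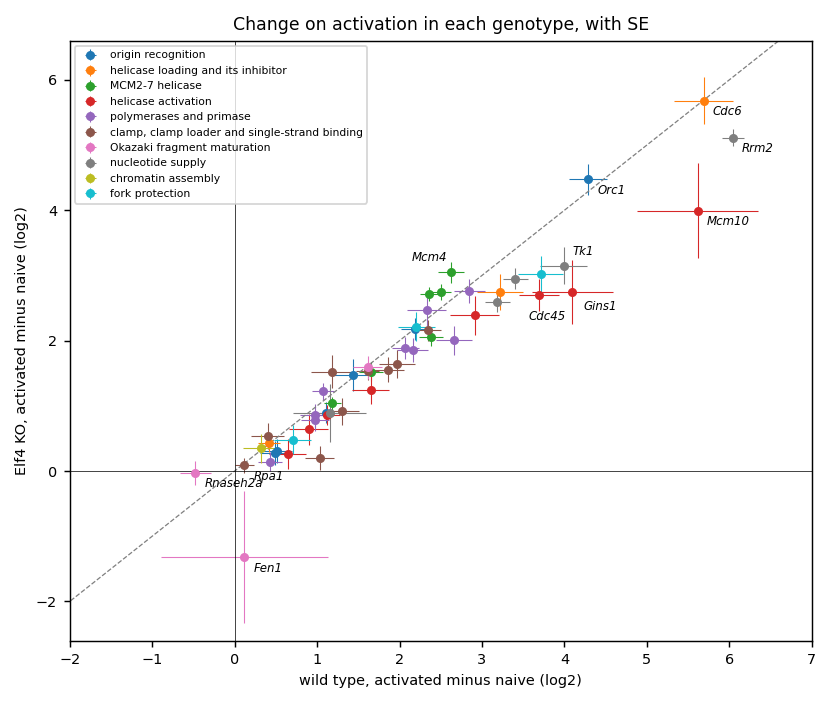
Each point is 1 replication gene, with the log2 change, activated minus naive, in Elf4 knockout on the vertical axis and in wild type on the horizontal axis; bars are SE and the dashed line marks equal change. Of the 53 genes 40 lie below the line, and Rrm2 lies at 5.11 in knockout and 6.04 in wild type.

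Of the 16 genes with an E2F word in the promoter, 15 rose in knockout and 16 in wild-type cells, with medians of 1.82 and 1.97. Among the 28 measured genes with a promoter and no such word, 19 rose in knockout and 22 in wild-type cells, with medians of 1.36 and 1.53. Over all genes tested, 21.9% rose in knockout and 21.3% in wild-type cells. The part of the E2F word in these counts was not tested. Rrm2, Mcm10, Tk1, Cdc45 and Dut rose strongly without one of these words in the window.

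A second list held 47 further genes of replication, its cyclins and its E2F factors, of which 46 were measured. In knockout cells 34 rose (73.9%) and 3 fell, against 21.9% and 26.1% of all genes, with a median of 1.49. In wild-type cells 35 rose (76.1%) and 4 fell, against 21.3% and 24.1% of all genes, with a median of 1.45. Ccne2, a cyclin E that drives entry into S phase, rose by 4.97 and 5.50, and Hells, a chromatin remodeller of dividing lymphocytes, by 4.56 and 4.37. Those that fell in both genotypes were Pold4, a small subunit of polymerase delta (-1.46 and -1.76), Rnaseh2c, an accessory subunit of ribonuclease H2 (-1.33 and -1.27), and Samhd1, which breaks down deoxynucleotides (-1.21 and -1.28). Rrm2b, the p53-inducible small subunit of ribonucleotide reductase, fell by 0.84 in wild-type cells (adjusted p = 0.0077), with -0.04 in knockout cells and no call on the difference (adjusted p = 0.39). A list of 9 other proliferation genes, such as Mki67 and Top2a, rose in both genotypes, with medians of 3.52 and 5.39.

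In activated cells, no replication gene was called between the genotypes. By limma 0 of 53 were higher and 0 lower in knockout cells, against 0.125% and 0.164% of all genes, and at an unadjusted p under 0.05 there were 6, all lower. The differences nevertheless lay mostly on one side: the knockout mean was lower for 40 genes and higher for 13, beside 6512 lower and 6271 higher among all genes. The median difference was -0.21, against -0.01 over all genes. Both knockout arrays lay below both wild-type arrays for 35 of 53 genes (66%), against 25.7% of all genes, and above both for 5 (9.43%), against 25.2%. With each array centred on its median the first count was 28 of 53 (52.8%), against 21% of all genes. Genes measured on the same 4 arrays are not independent, and no p is given for the list.

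Dbf4 had the smallest p in this comparison. Its tested probe set had 1600 and 1445 on activated knockout arrays, against 2528 and 2417 on activated wild-type arrays. The groups were well apart, with a log2 difference of -0.70 ± 0.16 (limma adjusted p = 0.12). In the limma fit of these 4 arrays alone the adjusted p was 0.016, the 1 call for Dbf4 among 22 alternatives. Naive knockout arrays also lay below naive wild-type ones for Dbf4, with 875 and 788 against 1182 and 1078, a difference of -0.44 ± 0.16 (adjusted p = 0.31). Pold2 had 1944 and 1747 on activated knockout, against 2560 and 2510 on activated wild-type arrays, a difference of -0.46 (adjusted p = 0.28). Prim2 had 1103 and 1323, against 1702 and 1823 (-0.54, adjusted p = 0.33). Mcm3 had 5877 and 5282, against 7387 and 7217 (-0.39, adjusted p = 0.35), and Pold1 had 3355 and 3539, against 4328 and 4217 (-0.31, adjusted p = 0.44). In each of these the arrays of the genotypes did not overlap, and none passed the threshold.

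By class, knockout arrays lay below wild-type ones without overlap for 8 of 9 polymerase and primase genes and 6 of 8 of helicase activation. The counts were 5 of 9 in the clamp group, 4 of 5 in nucleotide supply and 3 of 3 in fork protection, against 25.7% of all genes. Class medians of the difference were -0.28, -0.24, -0.22, -0.18 and -0.37 in that order. Of the MCM2-7 genes 3 of 6 lay lower without overlap, of helicase loading 1 of 3, of Okazaki fragment maturation 2 of 3 and of chromatin assembly 1 of 1. ORC had a median of 0.04, with Orc4 and Orc5 above wild type without overlap and Orc2 and Orc3 below it. The MCM2-7 genes had a median of -0.08 on their brightest probe sets, but the second probe sets of Mcm4, Mcm5 and Mcm6 had -0.50, -0.25 and -0.52, where the brightest had 0.06, 0.07 and 0.10. Over all 103 tested probe sets of the replication genes, 79 were lower and 24 higher in activated knockout cells.

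**Figure D3:**
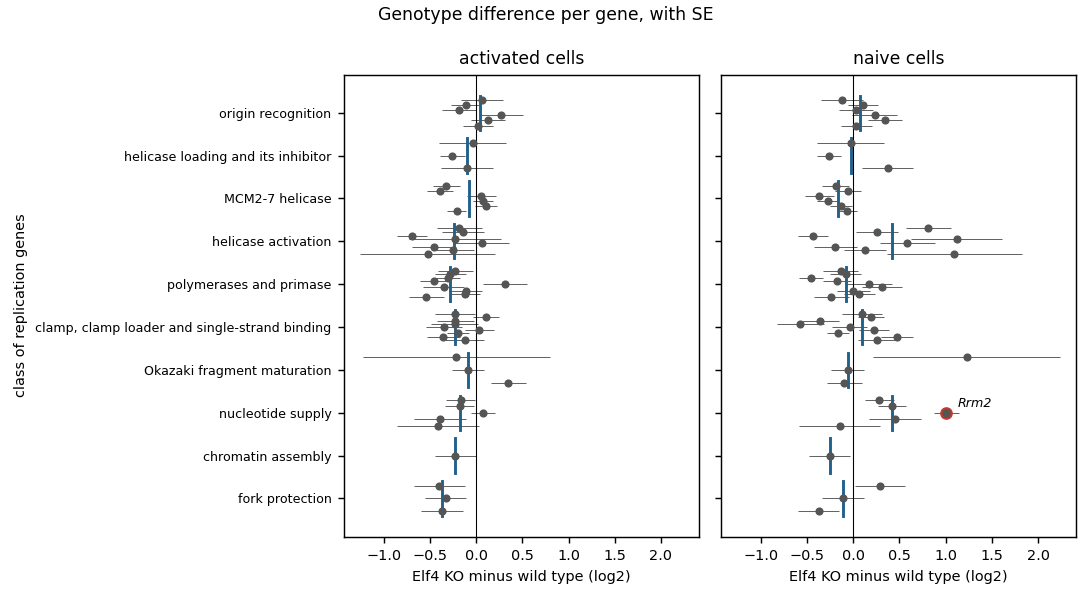
Points are the 53 replication genes by class, with the knockout minus wild-type difference in log2 on the horizontal axis and SE as bars, in activated cells on the left and naive cells on the right; vertical blue bars are class medians. In activated cells 40 of 53 points lie below 0, and in naive cells Rrm2, drawn as a larger red point, is the only gene past the threshold.

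Some other lists were lower in activated knockout cells too, while others were higher. The second list of replication genes had a median of -0.22, with 34 of 46 lower in activated knockout cells and 0 called. All 9 other proliferation genes were lower, with a median of -0.22 and 0 called. Their summed intensity was 41220 and 39930 on activated knockout and 48810 and 50290 on activated wild-type arrays. The T cell markers had a median of -0.22, with 7 of 9 lower. B cell markers had a median of 0.37, with 5 of 7 higher. Macrophage and monocyte markers had 0.17, with 3 of 4 higher, and CD4 T cell markers 0.12, with 2 of 2 higher. Granulocyte markers had -0.30, with 6 of 8 lower, and NK cell markers -0.95, with 2 of 2 lower. Erythroid markers had -0.82, with 2 of 2 lower, and dendritic cell markers 0.31, with 1 of 2 lower. None of these markers was called. The Actb ratio was higher on activated knockout arrays, and with it as a covariate the median difference of the replication genes was -0.20. The part of cell makeup in these differences was not tested. Among the 9 genes with an ETS word in the promoter 8 were lower in activated knockout cells, with a median of -0.35 and 0 called. Among the 35 without it 25 were lower, with a median of -0.18. In naive knockout cells 4 of the 9 and 19 of the 35 were lower, with medians of 0.03 and -0.03. The part of the ETS word in these differences was not tested.

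In naive cells 1 of 53 replication genes was higher in knockout cells (1.89%), against 0.477% of all genes, and 0 were lower, against 0.36%. That gene was Rrm2, with 723 and 795 on naive knockout arrays, against 382 and 356 on naive wild-type arrays, a log2 difference of 1.01 ± 0.13 (limma adjusted p = 0.013). Both knockout arrays were about 2-fold above both wild-type ones. This brightest probe set carries the _x_at mark. The other 2 had 132 and 204 against 20.0 and 101 (1.48, adjusted p = 0.20), and 78.3 and 196 against 99.2 and 29.1 (0.97, adjusted p = 0.40), where the genotypes overlapped on the last. The call was kept in 13 of 23 alternatives and was lost without the second naive knockout array or any 1 of the 4 activated arrays, which enter through the shared estimate of spread.

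At an unadjusted p under 0.05, 5 genes were higher and 5 lower in naive knockout cells. Next to Rrm2, the smallest p-values were those of Pold1, Cdc45, Dbf4 and Rrm1. Pold1 had 1510 and 1428 on naive knockout arrays, against 1991 and 2054 on naive wild-type arrays (-0.46, adjusted p = 0.20). Cdc45 had 179 and 159, against 110 and 72.2 (0.81, adjusted p = 0.21). Rrm1 had 1060 and 1366, against 854 and 942 (0.42, adjusted p = 0.31). None of these differences was called, and on the second probe sets those of Cdc45 and Rrm1 were -0.10 and 0.0042. The median over the 53 genes was 0.00, with 26 higher and 27 lower. Knockout arrays lay above wild-type ones without overlap for 9 genes (17%), against 20.3% of all genes, and below for 14 (26.4%), against 19.3%.

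The classes did not point one way in naive cells. On their brightest probe sets all 6 MCM2-7 genes were lower in naive knockout cells, with a median of -0.16. Of these, 4 had no overlap of arrays, against 19.3% of all genes. Among the 4 were Mcm4, Mcm5 and Mcm6, whose brightest probe sets carry the _x_at mark. By contrast, 6 of 8 helicase activation genes and 4 of 5 nucleotide supply genes were higher on their brightest probe sets, each class with a median of 0.42. Orc1 had a second, dim probe set with 11.6 and 11.4 on naive knockout arrays, against 133 and 117 on naive wild-type arrays, a fall of 2.36 on the log2 scale (adjusted p = 0.025), while its brightest probe set gave -0.12. The knockout values of that dim probe set lie far below the array medians.

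Naive knockout preparations also differed in other markers. Of the 9 other proliferation genes all were higher in naive knockout cells and 4 were called, Mki67 (1.93), Bub1b (1.89), Top2a (1.35) and Prc1 (1.34). Their summed intensities were 2834 and 3634 on naive knockout and 920 and 1467 on naive wild-type arrays. Granulocyte markers were all higher, 4 of 8 called, with sums of 4650 and 19400 on naive knockout and 356 and 699 on naive wild-type arrays. B cell markers summed to 4714 and 12970, against 5401 and 4087, and NK cell markers to 1055 and 1120, against 156 and 320. The part of these cells in the Rrm2 value was not tested. Among the second list of replication genes 0 were called in naive cells, with a median of -0.04.

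The difference of the genotype effect between activated and naive cells was called for 0 of 53 genes in either direction, against 0.0391% of all genes higher and 0.0469% lower. At an unadjusted p under 0.05 there were 5, 1 higher and 4 lower. The median was -0.21, against -0.03 over all genes. On their brightest probe sets all 8 genes of helicase activation and all 5 of nucleotide supply had a negative value, with medians of -0.46 and -0.60. For Mcm10 (-1.62) and Gins1 (-1.35) the naive wild-type arrays were far apart, at 5.91 and 172 and at 162 and 28.0. The second probe set of Cdc45 had 0.14. That of Gins1 changed by 1.56 in knockout and 0.71 in wild-type cells on activation, the larger change in knockout. All 9 other proliferation genes were negative too, with a median of -1.54 and Mki67 called (-2.30, adjusted p = 0.022). Negative values were also found for all 8 granulocyte markers, with a median of -4.19 and S100a8 called (-6.06, adjusted p = 0.048). The part of either in the values of the replication genes was not tested. Rrm2 had the smallest p, at -0.93 ± 0.18 (limma adjusted p = 0.12). Its genotypes lay 2-fold apart in naive cells and overlapped in activated cells, as the plot of single arrays shows.

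**Figure D4:**
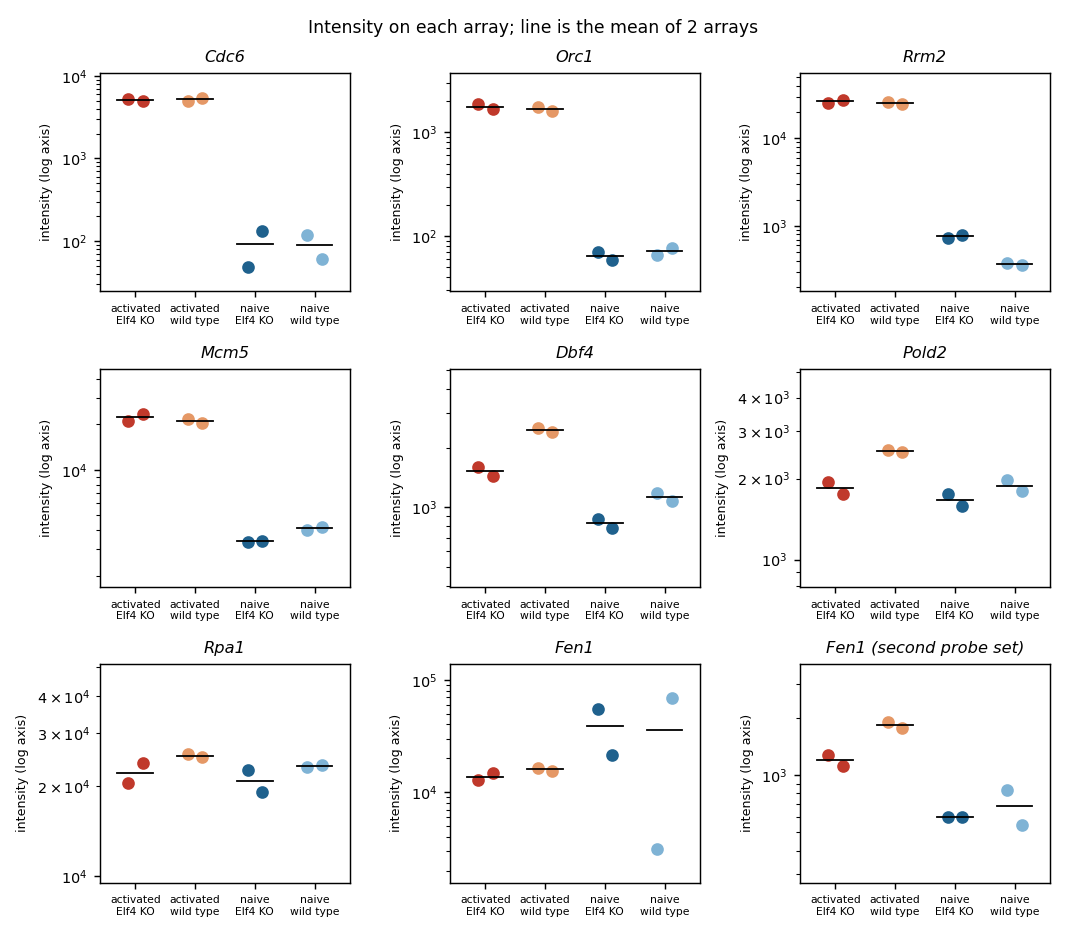
Each panel plots the intensity on a log axis of 1 replication gene on the 8 arrays, with activated knockout, activated wild type, naive knockout and naive wild type from left to right; points are arrays and lines are means of 2 arrays. Cdc6 and Orc1 differ between the states and overlap between the genotypes, Dbf4 lies lower in knockout in both states, Rrm2 differs between genotypes in naive cells, and the 2 Fen1 probe sets disagree.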

How the data were processed

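RNA abundance was measured on 8 Affymetrix arrays of mouse CD8+ T cells, 2 per group, and groups and replicate numbers came from the sample titles. The deposited table held an intensity for every probe set on each array, made by the authors with MAS5 per the submitters' processing notes; its version is not stated in the labels. Every array had a 2% trimmed mean of 500. Detection calls were not used here.

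In R 4.3.3 with limma 3.58.1, deposited intensities were taken as log2(intensity + 16), so log2 changes understate those of dim genes. Of 45101 probe sets, 64 were controls, and 34945 of the others had 1 gene symbol, 932 several and 9160 none. A probe set was tested if at or above the array median on at least 2 of 8 arrays, which kept 27348. Symbols were updated through Entrez identifiers (34741 matched). Probe sets shared between genes were not used. A fit of 4 group means (lmFit, eBayes with trend) had 4 residual and 6.7 prior degrees of freedom. Tests were two-sided, with Benjamini-Hochberg adjustment over the 27348 probe sets within a comparison. The fit was tested on simulated data, for activated against naive wild-type cells. It recovered 20 of 100 probe sets with a true log2 value of 1. At a true log2 value of 2 it recovered 52 of 100, and there were 3 false calls. Values after ± are SE, and levels are not compared between genes.

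The genes, classes, marker lists and alternatives were chosen with earlier results of these data known. Every gene of the list was described, by class; within a class the 3 called genes with the smallest p and the one with the smallest change were named, and in each genotype comparison the 5 genes with the smallest p. Replicate numbers were not taken as pairs: over 27348 probe sets, deviations of equally numbered arrays correlated at -0.17 to 0.07. Promoters came from RefSeq tables on GRCm38.p6, and no genome was used. Alternatives changed the offset (0 with values under 1 set to 1, or 64), normalization, filter, prior, samples, probe set, fold threshold, replicate block and Actb ratio, and left out each array.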

Additional observations from a re-analysis of the deposited data

How the results depend on the processing

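The counts of replication genes that rose on activation, 41 in knockout and 46 in wild-type cells, were 38 to 42 and 40 to 47 on leaving out 1 array at a time. With the log2 Actb 3′/5′ ratio as a covariate, which nearly follows the state, they were 0 and 9, the 9 being Orc1, Cdc6, Mcm3, Mcm4, Mcm5, Mcm6, Rrm1, Rrm2 and Dut. With the replicate block they were 41 and 43, and with a crossed replicate block, chosen after seeing the data because equally numbered naive arrays deviated oppositely (-0.17), 41 and 47; Rrm2 stayed the 1 naive call under both, and neither block added a call between the genotypes. The naive count of 1 higher was 0 without the trend, on 4 arrays alone, on the second probe set, without _x_at and _s_at probe sets and with the Actb ratio, and 0 to 4 on leaving out 1 array, with 4 without the second naive wild-type array. A naive count of 1 lower, against 0, came from the second or from any probe set, which is Orc1. On 4 arrays alone 2 genes were lower in activated knockout cells, against 0. The count that fell on activation in knockout cells was 1, against 0, on 4 arrays alone and on the second or any probe set, and 0 to 1 on leaving out 1 array, as in wild-type cells. The difference between states gave 0 to 2 lower genes on leaving out 1 array. The sign of the change on activation turned on the second probe set in knockout cells for Orc4 (-0.61), Cdt1 (-0.55), Mcm10 (-0.43) and Dut (-0.65), and in wild-type cells for Orc3 (-0.56), Orc4 (-0.49) and Cdt1 (-0.030). With the Actb ratio it turned in knockout cells for Cdt1 (-0.20), Pole2 (-0.28) and Rpa3 (-0.55); the cause was not tested. Apart from the Actb ratio, the second probe set and the 2-fold rule, 37 of the 41 and 39 of the 46 calls held in every alternative. The number of arrays limits the precision, and a missed threshold does not show that genotypes are alike.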

Other observations

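The second list of replication genes held 7 genes of cyclin A, cyclin E and the E2F family. In naive cells 6 of them had a positive genotype difference and E2f1 had -0.04, and none was called. Ccna2 had 1.19 (limma adjusted p = 0.060), E2f8 1.10 (adjusted p = 0.37), E2f2 1.06 (adjusted p = 0.098), Ccne1 0.93 (adjusted p = 0.32), E2f7 0.84 (adjusted p = 0.54) and Ccne2 0.55 (adjusted p = 0.46). In activated cells the differences were -0.21 for Ccna2, -0.35 for E2f8, -0.18 for E2f2, 0.08 for Ccne1, -0.75 for E2f7, 0.01 for Ccne2 and -0.49 for E2f1, none of them called. This group was chosen after its values were seen.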
